A study of Mus musculus with 6 samples.

Results

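The B7 family ligands were followed in DC2.4, an immortalised mouse dendritic cell line, across 6 messenger RNA libraries. The members were 7 genes chosen by symbol, Cd274, Pdcd1lg2, Cd80, Cd86, Icosl, Cd276 and Vtcn1, out of 54532 genes in the deposited table, and each symbol had a single row. The family was taken up because Cd274 had one of the lowest p-values in an earlier comparison of these same libraries, so its difference between the groups is given as a description and not as a test. The groups were 3 libraries of cells transfected with the empty pTT5 expression plasmid (pTT5 controls, or empty-vector libraries) and 3 of cells transfected with a Vdbp expression vector, also on pTT5 per the labels. Vdbp is the vitamin D-binding protein, encoded by Gc in the mouse. Cells of both groups were split 48 h after the plasmid was given and then placed in a selective medium, which the labels do not name. The labels speak of transduced cells for the empty vector and of transfection in the protocol, and leave out whether a group's 3 libraries stem from separate transfections, so p-values cover the spread of these samples alone, which may be technical.

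B7 ligands are membrane proteins of the immunoglobulin superfamily that antigen-presenting cells show to T cells. CD80 and CD86 bind CD28, which adds the co-stimulatory signal to that of the antigen receptor, and also CTLA-4, which withholds it. PD-L1 (Cd274) and PD-L2 (Pdcd1lg2) bind PD-1 and restrain T cells, ICOSL binds ICOS and helps follicular responses, and B7-H3 (Cd276) and B7-H4 (Vtcn1) are less well understood members, mostly described as inhibitory. Interferon-gamma signalling through JAK kinases and IRF1 is the best known inducer of PD-L1.

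The genes of the PD-1 ligands lie next to each other on chromosome 19, and their promoters are shown because both ligands share a receptor while their transcripts differ widely in level; that of Cd276 is shown as the most CpG-rich of the 6 on hand. Each sequence is the 250 bases before a RefSeq start site on GRCm38.p6, 5′ to 3′ on the gene's strand, with capitals for the interferon regulatory factor half-site GAAAC and for the GC box GGGCGG on either strand. By the deposited gene positions, the Cd276 window lies inside its gene (58524298 to 58555437) and not before it. The Cd80 window also lies inside its gene, and that of Icosl does in part. The motifs were chosen with these sequences in view.
Cd274, chr19:29367188-29367437, plus strand: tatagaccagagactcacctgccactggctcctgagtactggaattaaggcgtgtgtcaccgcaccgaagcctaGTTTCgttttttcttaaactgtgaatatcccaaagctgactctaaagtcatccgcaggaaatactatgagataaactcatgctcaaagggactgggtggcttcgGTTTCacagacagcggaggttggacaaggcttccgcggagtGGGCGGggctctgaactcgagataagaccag
Pdcd1lg2, chr19:29410669-29410918, plus strand: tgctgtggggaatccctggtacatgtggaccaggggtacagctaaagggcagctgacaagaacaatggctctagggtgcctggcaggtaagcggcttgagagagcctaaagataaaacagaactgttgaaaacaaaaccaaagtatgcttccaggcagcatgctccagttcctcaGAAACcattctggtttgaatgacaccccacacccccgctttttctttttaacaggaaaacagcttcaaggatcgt
Cd276, chr9:58555034-58555283, minus strand: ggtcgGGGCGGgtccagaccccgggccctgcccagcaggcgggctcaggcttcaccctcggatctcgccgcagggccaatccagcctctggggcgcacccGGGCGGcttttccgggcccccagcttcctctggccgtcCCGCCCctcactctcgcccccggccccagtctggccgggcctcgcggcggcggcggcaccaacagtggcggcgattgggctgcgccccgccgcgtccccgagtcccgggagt
The Cd274 window held the GAAAC half-site at 2 places, both on the reverse strand, and the Pdcd1lg2 window at 1. Of 32536 RefSeq windows of this length, 39.8% held it. The GC box was found at 1 place in the Cd274 window, at none in that of Pdcd1lg2 and at 3 in that of Cd276, against 33.0% of all windows with at least 1. CpG pairs numbered 11, 3 and 29 in these windows, where the median window has 6, and Icosl had 23, Vtcn1 5 and Cd80 3. None of the 6 windows on hand held the interferon-stimulated response core, GAAA repeated with 2 free bases between (2.98% of all windows), or the AP-1 site TGACTCA (4.45%), searched on both strands, which says only that these letters are not in these windows. The kappaB consensus matched once before Pdcd1lg2 and once before Icosl (7.28% of all windows). No window of Cd86 was used here.

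The libraries held 15563800 to 16710975 counts. Gc had 0 counts in each of the 6 libraries, so the groups are called by their labels. Libraries differed by gene GC content: its Spearman's rho with each library's deviation, taken across genes, which are not independent replicates, reached −0.639 in empty-vector replicate 2 and 0.749 in Vdbp replicate 1, and lay between −0.408 and 0.0691 in the others. Of 16 dendritic cell markers 4 reached a mean of 1 CPM (Itgax, Zbtb46, Irf8 and Sirpa), with a summed level of 679.6 to 748.0 CPM in the empty-vector libraries and 679.8 to 784.0 CPM in those labelled Vdbp. Most of this sum was Sirpa, at 567.5 to 664.6 CPM over the 6 libraries. The class II chain genes H2-Aa and H2-Ab1 had 1 and 4 counts in all 6 libraries together, and Dpp4 had none. Of 10 macrophage and monocyte markers 8 reached 1 CPM, with a summed level of 5219 to 5936 CPM in pTT5 controls and 4949 to 5366 CPM in Vdbp-labelled libraries. Mertk (11 counts) and Cd163 (1 count) were the macrophage markers near 0.

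Cd274, Cd86 and Cd276 were the abundant B7 transcripts of DC2.4, Cd80 and Icosl were lower, and Pdcd1lg2 and Vtcn1 were close to the limit of detection. Levels between genes are compared as FPKM, which scales fragments to gene length and library size, and levels of 1 gene between libraries as CPM, which scales counts to the TMM-adjusted library size only. Mean FPKM over the 6 libraries was 22.8 for Cd274, 21.9 for Cd86, 16.6 for Cd276, 4.47 for Cd80, 1.55 for Icosl, 0.403 for Pdcd1lg2 and 0.0850 for Vtcn1. Among the 24135 genes with any count, 89.5% lay below Cd274, 68.5% below Cd80 and 30.2% below Vtcn1. The ranges of the first 3 overlapped, at 16.1 to 29.2 FPKM for Cd274, 17.2 to 25.3 for Cd86 and 14.8 to 19.03 for Cd276, so that their order is not fixed by these libraries. Cd80 (3.47 to 5.59 FPKM) and Icosl (1.36 to 1.91 FPKM) stood apart from their neighbours in every library. Pdcd1lg2 (0.179 to 0.580 FPKM) and Vtcn1 (0.0243 to 0.258 FPKM) overlapped.

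**Figure D1:**
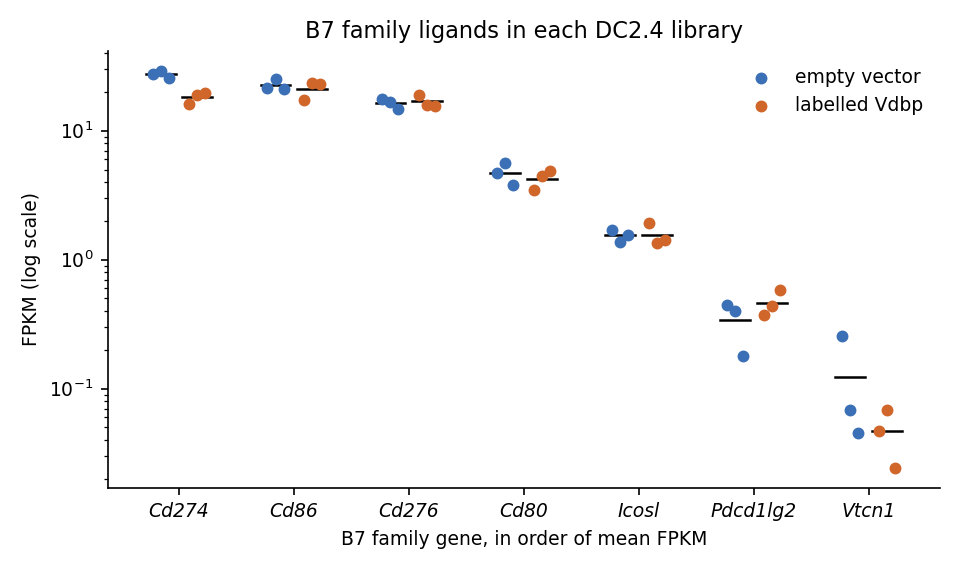
FPKM of the 7 B7 family genes on a log scale, 1 point for each library (3 empty vector, 3 labelled Vdbp), with a bar at each group's mean. Cd274, Cd86 and Cd276 lie between 14.8 and 29.2 FPKM, and Cd274, which was chosen from this contrast, is the member whose groups separate.

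The PD-1 ligands come first. Cd274 (ENSMUSG00000016496, chromosome 19, 29367455 to 29388095, plus strand) had 1618, 1776 and 1584 counts in control replicates 1 to 3 and 945, 1142 and 1109 in Vdbp-labelled replicates 1 to 3. As CPM these were 99.5, 107.2 and 93.7 in pTT5 controls and 58.8, 68.2 and 70.9 in Vdbp-labelled libraries. All 3 libraries labelled Vdbp lay below all 3 empty-vector libraries, with Vdbp replicate 1 the lowest and empty-vector replicate 2 the highest. The group means were 100.1 ± 6.80 and 65.97 ± 6.33 CPM (SD, n = 3 each), 34.1% less, and the log2 fold change was −0.60 (SE 0.10, 95% interval −0.83 to −0.37). Groups that do not overlap in this direction were found for 5.61% of all 12844 tested genes and in either direction for 10.9%, and Cd274 was picked from this comparison, so nothing is read from that. The highest and the lowest library were also the ends of the GC trend, and without both the log2 fold change was −0.48.

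Pdcd1lg2 (ENSMUSG00000016498, chromosome 19, 29410919 to 29471157, plus strand) starts 22.8 kb beyond the end of Cd274. It had 12, 11 and 5 counts in pTT5 controls and 10, 12 and 15 in Vdbp-labelled libraries. The groups overlapped, at 0.566 ± 0.237 and 0.766 ± 0.173 CPM (SD, n = 3 each), and the log2 fold change was 0.43 with an interval of −0.50 to 1.36 (edgeR adjusted p 0.797 over all tested genes). The interval spans 0.709 to 2.57 times the control level, the widest of the tested members. Single libraries moved this value: it was 0.13 without empty-vector replicate 3, 0.25 without Vdbp replicate 3 and 0.67 without empty-vector replicate 1. In FPKM, Cd274 exceeded Pdcd1lg2 by 61.2, 73.3 and 143.9 times in control replicates 1 to 3 and by 42.9, 43.2 and 33.6 times in Vdbp-labelled replicates 1 to 3. Per length, Cd274 was by far the more abundant transcript of the PD-1 ligands in each library. The size of the ratio is imprecise, as Pdcd1lg2 had 5 to 15 counts in a library.

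The ligands of CD28 and CTLA-4 overlapped between the groups. Cd86 (ENSMUSG00000022901, chromosome 16, 36603869 to 36666081, minus strand) was at 78.6, 93.7 and 77.6 CPM in control replicates 1 to 3 and at 63.4, 85.9 and 84.7 CPM in Vdbp-labelled replicates 1 to 3. A single library, Vdbp replicate 1, lay below the other group, and the log2 fold change was −0.09 (SE 0.13, interval −0.38 to 0.19, edgeR adjusted p 0.832). Cd80 (ENSMUSG00000075122, chromosome 16, 38455561 to 38496335, plus strand) was at 17.3, 20.9 and 14.1 CPM in pTT5 controls and 12.95, 16.6 and 17.9 CPM in Vdbp-labelled libraries. Its values were also highest in empty-vector replicate 2 and lowest in Vdbp replicate 1, and the log2 fold change was −0.14 (SE 0.17, interval −0.51 to 0.23, edgeR adjusted p 0.819). Cd86 exceeded Cd80 by 4.52 to 5.55 times in FPKM. This ratio averaged 4.89 ± 0.576 in pTT5 controls and 4.99 ± 0.229 in Vdbp-labelled libraries (SD, n = 3 each; two-sided exact permutation p 0.8, where 3 against 3 cannot go below 0.1). The summed FPKM of Cd80 and Cd86 was 27.3 ± 3.14 and 25.5 ± 4.17 (SD, n = 3 each; exact permutation p 0.6).

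Of the remaining members, Icosl and Cd276 also overlapped, and Vtcn1 could not be tested. Icosl (ENSMUSG00000000732, chromosome 10, 78069302 to 78083913, plus strand) was at 7.81, 6.46 and 7.22 CPM in control replicates 1 to 3 and at 8.90, 6.27 and 6.64 CPM in Vdbp-labelled replicates 1 to 3. Its log2 fold change was 0.02 (SE 0.18, interval −0.37 to 0.41, edgeR adjusted p 0.972). Here Vdbp replicate 1 was the highest library, the reverse of its place in Cd80 and Cd86. Cd276 (ENSMUSG00000035914, chromosome 9, 58524298 to 58555437, minus strand) was at 64.5, 61.9 and 54.5 CPM in pTT5 controls and at 70.2, 58.1 and 57.6 CPM in Vdbp-labelled libraries. Its log2 fold change was 0.04 (SE 0.12, interval −0.21 to 0.29, edgeR adjusted p 0.922). For Cd276 the interval spans 0.863 to 1.22 times the empty-vector level, and for Cd86 0.769 to 1.14 times, so these data leave room for small changes in both. Vtcn1 (ENSMUSG00000051076, chromosome 3, 100825459 to 100896922, plus strand) had 11, 3 and 2 counts in pTT5 controls and 2, 3 and 1 in Vdbp-labelled libraries, and it did not pass the filter on low counts. Its 11 counts in empty-vector replicate 1 made up most of the 16 in that group, against 6 in the other, and a count of 0 alone would allow up to 0.177 to 0.192 CPM (3 counts, counting error only).

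In the fit over all genes, none of the 6 tested members passed. By edgeR's quasi-likelihood test 0 of 12844 genes (0%) had an adjusted p below 0.05, and 687 genes, 5.35% of those tested, had an unadjusted p under 0.05. Of the members only Cd274 was among the latter, and its edgeR adjusted p was 0.601. By limma-voom there were also 0, and 701 genes lay below 0.05 before adjustment. The limma-voom adjusted p of Cd274 was 0.685. Cd274 was the single member past the adjusted threshold in 3 fits to all 6 libraries: in DESeq2 (adjusted p 0.00438), where 0.0701% of genes were called lower, in edgeR without a filter on low counts (adjusted p 0.000313), where 0.195% were, and in edgeR with an offset for gene length and GC content (adjusted p 0.00657), where 0.0156% were. With the offset, its adjusted p by edgeR was 0.135 without empty-vector replicate 1, 0.0707 without Vdbp replicate 1 and 0.102 without Vdbp replicate 2, and without the offset 22 genes passed once empty-vector replicate 3 was left out, 1 once empty-vector replicate 2 was and 2 once both ends of the GC trend were, with no member among them. Because Cd274 was chosen from this contrast, these calls are listed and not counted as support. With the offset the log2 fold change was −0.51 for Cd274, −0.00 for Cd86, −0.04 for Cd80, −0.08 for Cd276, 0.00 for Icosl and 0.43 for Pdcd1lg2. The cells' number and the RNA per cell cannot be told apart in such bulk samples.

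**Figure D2:**
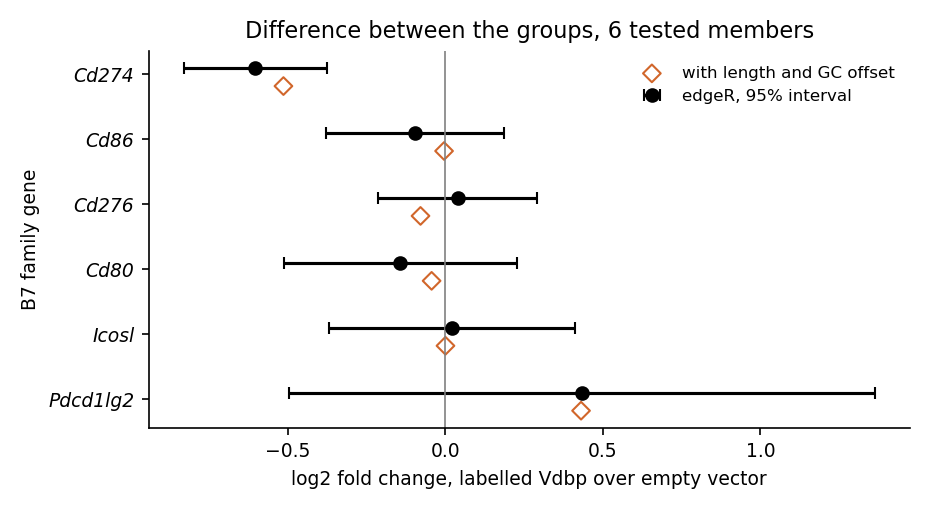
Log2 fold change of the 6 tested members, libraries labelled Vdbp over empty vector. Shown are the estimate with the 95% interval derived from the edgeR test (filled) and the estimate with a length and GC offset (open diamonds). The interval of Cd274 runs from −0.83 to −0.37, and the other intervals include 0. Cd274 was chosen from this contrast, so its interval is a description (edgeR adjusted p 0.601 over all tested genes).

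The mixture of B7 transcripts within each library was compared next, which needs no scaling between libraries but does not take off the GC trend. Shares are tied to each other, so a lower share of Cd274 raises those of the other members. Cd274 made up 37.3%, 37.2% and 38.3% of the summed FPKM of the 7 members in control replicates 1 to 3 and 27.7%, 29.2% and 29.9% in Vdbp-labelled replicates 1 to 3. Cd86 made up 30.9% ± 1.55 in pTT5 controls and 33.8% ± 3.68 in Vdbp-labelled libraries (SD, n = 3 each), and Cd276 22.4% ± 1.39 and 27.2% ± 4.85. In all 3 empty-vector libraries Cd274 was the most abundant B7 transcript per length, and in all 3 libraries labelled Vdbp Cd86 or, in replicate 1, Cd276 was. The ratio of Cd274 to Cd86 was 1.28, 1.16 and 1.22 in pTT5 controls and 0.937, 0.803 and 0.845 in Vdbp-labelled libraries. Without Cd274, the summed FPKM of the other 6 members was 45.7 ± 3.96 and 44.4 ± 2.06 (SD, n = 3 each; two-sided exact permutation p 0.6).

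**Figure D3:**
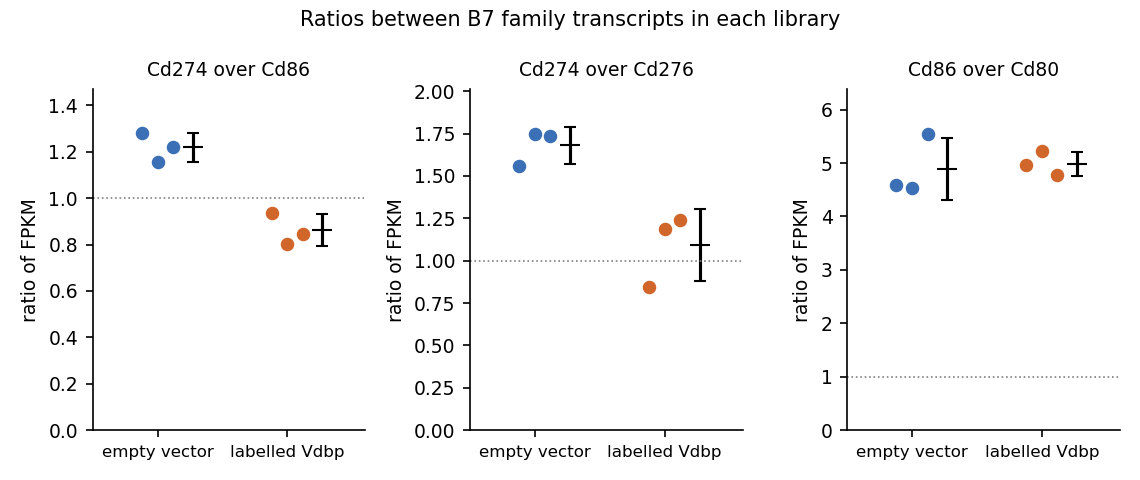
Ratios of FPKM within each library for Cd274 over Cd86, Cd274 over Cd276 and Cd86 over Cd80, with points for libraries, and the mean and SD beside them (n = 3). Cd274 over Cd86 lies above 1 in the empty-vector libraries and below 1 in those labelled Vdbp, and Cd86 over Cd80 overlaps.

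Within the groups, Cd274, Cd80 and Cd86 deviated in the same libraries. After the group means were taken off, Pearson's r with Cd274 over the 6 libraries was 0.966 for Cd80, 0.957 for Cd86, 0.697 for Pdcd1lg2, −0.402 for Cd276 and −0.854 for Icosl, given as a description of 6 libraries that also share the GC trend. The GC content of the transcripts was 44.9% for Cd274, 44.0% for Cd80 and 44.4% for Cd86, against 51.3% for Icosl and 55.7% for Cd276. The part of the GC trend in these shared deviations was not tested.

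**Figure D4:**
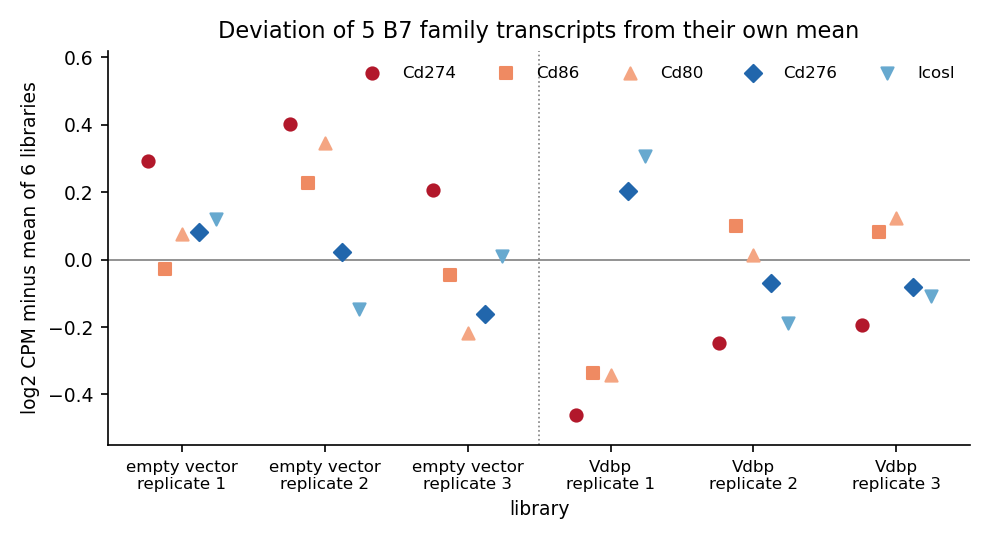
Log2 CPM of 5 members minus each gene's own mean over the 6 libraries, by library. Cd274, Cd86 and Cd80 are highest in empty-vector replicate 2 and lowest in Vdbp replicate 1, where Icosl and Cd276 are highest, and Cd274 also shifts between the groups.

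The genes whose levels ran most like Cd274 over the 6 libraries came from several functions. Among 9389 protein-coding genes with at least 5 CPM, Pearson's r of log2 CPM was highest for Tnfaip3, the deubiquitinase A20 that dampens NF-kB signalling (0.993), and for Add3, an adducin of the membrane skeleton (0.991). Usp40 (0.987), the integrin subunit Itga6 (0.986), the ARF GTPase-activating protein Asap1 (0.985), the disulfide isomerase Pdia4 (0.984), Osbpl3 (0.982) and the nuclear receptor coactivator Ncoa1 (0.982) followed. Tnfaip3 averaged 50.6 ± 0.977 CPM in pTT5 controls and 42.95 ± 1.23 CPM in Vdbp-labelled libraries (SD, n = 3 each; log2 fold change −0.24, SE 0.10). With the group means taken off, r with Cd274 was 0.945 for Tnfaip3 and 0.818 to 0.952 for the other 7. The lowest r was that of Ppil1 (−0.985), Acad12 (−0.983), Nudt1 (−0.978) and Lage3 (−0.977). With 6 points high values are not rare, and 2.15% of the genes had an r of at least 0.9, a looser cut than the values listed. As for Cd274, the groups did not overlap for any of the 8 genes, with the lower values in Vdbp-labelled libraries. The list thus in part restates the group contrast from which Cd274 was chosen. No other B7 gene was near the top by the r that includes the group difference, with Cd80 at 0.574 and Cd86 at 0.566. With the group means taken off, r with Cd274 was 0.966 for Cd80 and 0.957 for Cd86.

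The neighbourhood of Cd274 on chromosome 19 held 11 genes, itself included, whose lower coordinate lies within 250 kb of its own, and 9 of these were tested. Jak2, the kinase of the interferon-gamma receptor, averaged 36.2 ± 4.31 CPM in pTT5 controls and 31.5 ± 6.24 CPM in Vdbp-labelled libraries (SD, n = 3 each; log2 fold change −0.20, SE 0.15). Plgrkt, a plasminogen receptor read from the other strand, whose start lies inside the Cd274 window printed above, averaged 38.0 ± 2.46 and 32.05 ± 3.24 CPM (log2 fold change −0.25, SE 0.12). Ric1 (−0.12), Ermp1 (−0.11), Insl6 (−0.23) and A930007I19Rik (−0.11) differed by little more than their own standard error or by less, and the pseudogene Gm5518 had 0.58 (SE 0.25). Apart from Cd274 itself, the groups overlapped in each of the tested genes of this window. Mir101b and Rln1 had no counts.

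Of the receptors for B7 ligands, 3 of 7 were tested and none passed in either direction. Cd28, the co-stimulatory receptor best known from T cells, was counted in these cells at 46.0, 58.8 and 49.9 CPM in control replicates 1 to 3 and at 37.4, 46.6 and 54.7 CPM in Vdbp-labelled replicates 1 to 3. The groups overlapped (log2 fold change −0.16, SE 0.15). Rgmb, a receptor for PD-L2, averaged 24.4 ± 1.44 and 26.9 ± 0.46 CPM (SD, n = 3 each; log2 fold change 0.14, SE 0.11), without overlap. Treml2, a proposed receptor of B7-H3, was at 3.46 and 4.28 CPM on average, with overlap. Pdcd1, Ctla4, Icos and Btla did not pass the filter, and the mean of each stayed at or under 0.102 CPM in both groups. Of the 8 T cell marker genes, Cd3e, Cd3g, Cd8a and Thy1 had 0 counts in all libraries. Cd3d, Trac and Cd4 had 2, 2 and 1 counts over all libraries. Lck went the other way, at 7.77 CPM on average in pTT5 controls and 8.97 CPM in Vdbp-labelled libraries.

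The routes that act on Cd274 were read from lists of genes, and no member of any list passed in either direction. A list can hold genes of opposite roles, so its counts by sign and its median give no direction for a route. For the interferon and JAK-STAT route, all 17 genes were tested, 12 had a negative and 5 a positive log2 fold change, and the median was −0.07, against −0.01 over all tested genes. Irf9, a part of the interferon-stimulated transcription factor complex and the most abundant per length, averaged 976.9 ± 36.9 and 990.4 ± 37.8 CPM (SD, n = 3 each). The largest differences among those of at least 5 CPM were those of Socs1, a feedback inhibitor of JAK kinases (log2 fold change 0.33, SE 0.23), and Ptpn2, a phosphatase that acts on JAK and STAT proteins (−0.24, SE 0.13), and both overlapped. Irf1, the factor through which interferon-gamma reaches Cd274, was at 18.1 and 18.7 CPM on average. In 4 of the 17 genes all libraries labelled Vdbp lay below the others. Of all tested genes, 5.61% did not overlap in this direction and 10.9% in either. The 4 genes of this list, named after their values were seen, were the receptor chains Ifnar1 (log2 fold change −0.21, SE 0.10) and Ifnar2 (−0.22, SE 0.10), Jak1 (−0.18, SE 0.10) and the class I transactivator Nlrc5 (−0.11, SE 0.09). In the lists below, 3 of 21 tested transcription factor genes were lower without overlap and 1 was higher. For PD-L1 protein handling 2 of 22 were lower and 3 higher, and for messenger RNA decay 0 of 12 were lower and 1 higher. Genes of a list are not independent replicates, so nothing is read from these counts.

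Among NF-kB, AP-1 and other transcription factors that act on B7 genes, 21 of 24 were tested, 11 positive and 10 negative, with a median of 0.00. Nfkbia, the NF-kB inhibitor and the most abundant per length, averaged 238.8 ± 19.6 and 230.3 ± 14.2 CPM (SD, n = 3 each). Fos, an AP-1 subunit, was at 36.3, 27.8 and 37.1 CPM in control replicates 1 to 3 and at 16.3, 24.3 and 22.7 CPM in Vdbp-labelled replicates 1 to 3. Its log2 fold change was −0.68 (SE 0.16, edgeR adjusted p 0.781), without overlap, and that of Jund, another AP-1 subunit, was 0.22 (SE 0.15).

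For the handling of PD-L1 protein, all 22 genes were tested, 12 positive and 10 negative, with a median of 0.01. Cdk4, the most abundant per length, averaged 294.8 ± 7.96 and 325.0 ± 33.8 CPM (SD, n = 3 each). Hip1r, which directs PD-L1 to the lysosome, averaged 11.1 ± 0.791 and 14.2 ± 1.498 CPM (log2 fold change 0.36, SE 0.14, without overlap), and the ubiquitin ligase Stub1 36.4 ± 6.50 and 43.7 ± 6.09 CPM (0.27, SE 0.15). Cmtm6, which keeps PD-L1 at the cell surface, was at 46.4 and 45.96 CPM on average. For messenger RNA decay, all 12 genes were tested, 9 positive and 3 negative, with a median of 0.06. Mapkapk2, the kinase that restrains tristetraprolin and the most abundant per length, averaged 639 ± 47.1 and 711 ± 88.6 CPM. Hnrnpd, the RNA-binding protein AUF1, averaged 81.9 ± 9.03 and 96.3 ± 3.70 CPM (log2 fold change 0.23, SE 0.10, without overlap), and Zfp36l1, a relative of tristetraprolin, had a log2 fold change of 0.20 (SE 0.13).

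**Figure D5:**
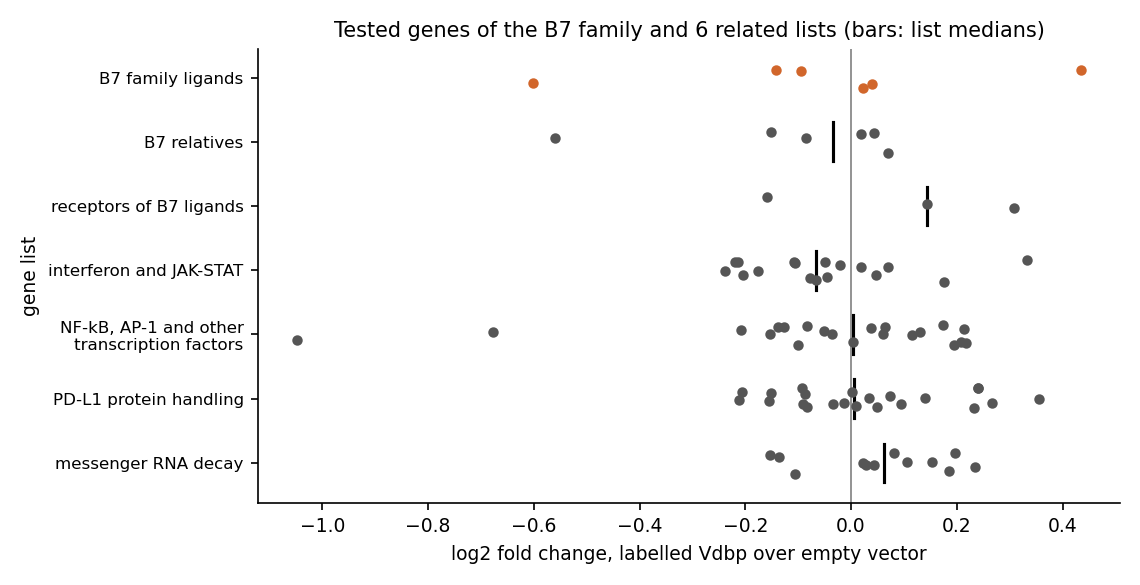
Log2 fold change, libraries labelled Vdbp over empty vector, of each tested gene of the B7 family and of 6 related lists, with a bar at the median of each of the 6 lists. These medians lie between −0.07 and 0.14, and Cd274 (−0.60) and Pdcd1lg2 (0.43) are the ends of the family.

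Of 12 related surface ligands and butyrophilin-like genes, 6 were tested, 3 positive and 3 negative, with a median of −0.03, and none passed. Lgals9, the galectin that binds TIM-3 and the most abundant per length, averaged 124.1 ± 9.49 and 127.9 ± 16.9 CPM (SD, n = 3 each). Cd47, the ligand of SIRP-alpha, averaged 163.6 ± 2.86 and 154.2 ± 10.7 CPM (log2 fold change −0.09, SE 0.09), and Pvr, the ligand of TIGIT, 74.8 ± 8.18 and 67.4 ± 1.22 CPM (−0.15, SE 0.10). Vsir, which encodes VISTA, was at 62.8 and 65.8 CPM on average, near the level of Cd276 in these units, which are not per length. Tnfrsf14, the receptor HVEM that binds BTLA, averaged 1.53 ± 0.0161 and 1.04 ± 0.238 CPM (SD, n = 3 each; log2 fold change −0.56, SE 0.30, edgeR adjusted p 0.781) without overlap, and was named after its values were seen. Ildr2, Btn2a2 and Cd200 had no counts.

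Of the 8 tested macrophage and monocyte markers none passed in either direction (edgeR adjusted p 0.781 for Adgre1, Lyz2 and Itgam). The groups did not overlap for Adgre1 (log2 fold change −0.20), Lyz2 (−0.31) and Itgam (−0.20), each with the lower values in Vdbp-labelled libraries. They overlapped for the others. Of all tested genes, 5.61% did not overlap in this direction and 10.9% in either. The median log2 fold change of the 8 markers was −0.05, against −0.01 over all tested genes. The part of these markers in the result for Cd274 was not tested.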

How the data were processed

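Messenger RNA libraries of 6 DC2.4 samples were made by Illumina protocols, per the labels' protocols. The submitters' processing notes name HISAT2 and StringTie; which counter, build or annotation was used is not given in the sources used here. Deposited counts are unnormalised counts per gene, and the authors' FPKM equal these counts over gene length and 1 constant per library, within a relative gap of 5.1e-15. Of the genes, 99.8% were found in GENCODE M21 (GRCm38), 98.3% of these at the same start and end. The count model used edgeR 4.0.16 under R 4.3.3: filterByExpr (minimum count 10, minimum total 15, proportion 0.7), TMM scaling and a two-sided quasi-likelihood F test on group, with Benjamini-Hochberg adjustment over 12844 genes at 0.05. SE was derived from that test, as the absolute log2 fold change over the square root of its F. The 95% intervals used that SE and t quantiles at the test's total degrees of freedom. The 7 members had 6 tested.

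Alternatives were DESeq2 1.42.0, limma-voom (limma 3.58.1), scaling by total count, RLE or upper quartile, other filters, limma on log2(FPKM + 1) and log2(FPKM + 0.1), an adjusted p under 0.01, the replicate number as a block, each library left out, and an offset for length and GC content (mgcv 1.9.3). Leaving out both ends of the GC trend, and the offset with each library left out, were added after seeing the data. Functions were tested on simulated data. The members and lists were chosen with earlier results of these data known. Named genes were the members, in each list the most abundant per length and the 2 of at least 5 CPM with the largest change, the 8 genes most and 4 least like Cd274, and its neighbours within 250 kb by the table's lower coordinate, whatever the strand; others were named after their values were seen. Promoter sequences are from RefSeq (GRCm38.p6), matched by symbol for 6 of 7 members. One gene of the interferon list is not reported here by name.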

Additional observations from a re-analysis of the deposited data

How the results depend on the processing

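Genes past the adjusted threshold numbered 0 with edgeR, 11 with DESeq2, 89 without a filter on low counts, 2 with the length and GC offset and 2 without both libraries at the ends of the GC trend; they ranged from 0 to 22 when each library was left out, where 22 was reached lacking empty-vector replicate 3 and 1 lacking empty-vector replicate 2. With the offset, 2 genes passed lacking empty-vector replicate 2, 228 lacking empty-vector replicate 3, 1 lacking Vdbp replicate 3 and 0 without any of the other 3. Cd274 was the 1 member past the threshold with DESeq2 (log2 fold change −0.60), without a filter (−0.60) and with the offset (−0.51). With the offset it was again the 1 member past it lacking empty-vector replicate 2 (−0.51), or else empty-vector replicate 3 (−0.53) or Vdbp replicate 3 (−0.52), and the count of members was 0 without any of the other 3, with adjusted p from 0.0707 to 0.135. Leaving out each library without the offset gave Cd274 −0.66 to −0.52, with adjusted p from 0.0785 to 0.883. Genes of the pathway lists past the threshold numbered 0, but 2 without a filter and 2 with the offset and without empty-vector replicate 3. The members near 0 turned direction. Leaving out each library, Cd80 ranged from −0.273 to 0.0099 (the latter lacking empty-vector replicate 2), Cd86 from −0.169 to 0.0379 (lacking Vdbp replicate 1), Icosl from −0.146 (lacking Vdbp replicate 1; −0.0463 lacking empty-vector replicate 2) to 0.12 and Cd276 from −0.0562 (lacking Vdbp replicate 1; −0.0278 lacking empty-vector replicate 3) to 0.0908. Pdcd1lg2 kept its direction, from 0.125 (lacking empty-vector replicate 3) to 0.669 (lacking empty-vector replicate 1), with 0.247 lacking Vdbp replicate 3. Lacking both ends of the GC trend, the values were 0.132 for Cd80, 0.124 for Cd86, −0.221 for Icosl and −0.0434 for Cd276, and Cd276 had −0.0782 with the offset. The cause was not tested. After the group means were taken off, same-numbered libraries did not deviate together (r 0.144, 0.0341 and −0.265). As the libraries also carry the GC trend, these values cannot tell whether the numbers pair the samples. The replicate block gave 0 genes and −0.60 for Cd274 and changed no call. Depth limits Pdcd1lg2, with 65 counts over all libraries, and Vtcn1, with 16 and 6 counts in the groups.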

Other observations

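Besides Cd28, single genes best known from lymphocytes were counted in both groups. Lck, a kinase of T cell receptor signalling, averaged 7.77 CPM in pTT5 controls and 8.97 CPM in Vdbp-labelled libraries, and Pax5, a B cell transcription factor, 2.51 and 2.08 CPM. The other 7 T cell markers had 5 counts in all libraries together, and the other 4 B cell markers 13. All 4 NK cell markers had 0 counts. These genes were singled out after their values were seen. Fosb, an AP-1 subunit with 3.73 ± 1.87 CPM in pTT5 controls and 1.81 ± 0.87 CPM in Vdbp-labelled libraries (SD, n = 3 each), had a larger log2 fold change than Cd274 (−1.05, SE 0.40), with overlap between the groups.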
